A study of Rattus norvegicus with 4 samples.

Results

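Resistin (Retn), 4 further adipokine genes and 4 genes of adipocyte regulation and metabolism were followed in cultured rat neural cells. They are Lep, Adipoq, Nampt, Lcn2, Pparg, Cebpa, Fabp4 and Hsd11b1 beside Retn. All non-control probes whose accession belongs to 1 of these genes were taken, which gave 11 probes on 29 spots for all 9 genes, of 40758 probes kept and 8927 genes named. The genes were picked by their signals on these same 4 arrays, so their levels and differences are given as a description, without a test.

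The groups were neurons derived from olfactory bulb stem cells, neurons derived from hippocampal stem cells, olfactory bulb neural stem cells and hippocampal neural stem cells, all from the strain labelled fisher 344 rat. How the neurons were made from the stem cells, and for how long, is not given in the sources used here. Each group was measured on 1 Agilent array with 1 colour (Cy3), hybridised with pooled RNA of 3 independent experiments, so no spread between cultures can be given. Values are the scanner software's background-subtracted signal, and differences are log2 values after each array's 75th percentile was subtracted. A difference of 1 log2 unit, 2-fold, was the threshold. Where 1 side was not well above background, the difference is a bound and is written "at least". A dim signal over the array's lowest signal well above background kept its own value, and the bound is then not strict. Of the probes, 74.0%, 66.6%, 63.8% and 60.2% were well above background on the bulb neuron, hippocampal neuron, bulb stem cell and hippocampal stem cell arrays, and 0 spots were saturated. Both neuron arrays lay on one slide and both stem cell arrays on the other, so slide and cell state cannot be told apart, while bulb and hippocampal cells of one state shared a slide.

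The neuron labels were set against marker genes. Of 16 neuron markers measured, in bulb neurons 3 were at least 2-fold higher and 10 at least 2-fold lower than in bulb stem cells, and 2 were higher and 8 lower in hippocampal neurons than in hippocampal stem cells. The synaptic vesicle gene Syp read 14.0 in bulb neurons and 14.0 in hippocampal neurons, where it was not well above background, against 106 in bulb stem cells and 80.1 in hippocampal stem cells. Snap25 and Stmn2 went the other way in both sources. Snap25 was higher by 3.08 in bulb neurons and by 3.97 in hippocampal neurons, and Stmn2 by at least 5.01 and at least 5.83. Of 11 markers of fibroblasts, pericytes or smooth muscle with a probe, 11 were higher by 2-fold or more in bulb neurons and 11 in hippocampal neurons. Their summed signal was 559 and 394 times the 75th percentile in bulb and hippocampal neurons, and 0.312 and 0.468 times in bulb and hippocampal stem cells. Of 10 astrocyte markers, 9 were higher and 1 lower in bulb neurons, and 8 were higher and 1 lower in hippocampal neurons, with summed signals of 145 and 142 times the 75th percentile in bulb and hippocampal neurons and 31.9 and 41.9 times in bulb and hippocampal stem cells. Of 6 endothelial markers with a probe, Pecam1 was not well above background on any array. Of the 5 compared, 3 were higher in bulb neurons and 4 in hippocampal neurons. Over all genes compared, 26.9% were higher and 20.0% lower past 2-fold in bulb cells, and 21.9% and 26.8% in hippocampal cells. Of 9 microglia and macrophage markers compared, 7 were higher and 0 lower in bulb neurons, and 6 were higher and 0 lower in hippocampal neurons. Markers of fibroblasts, astrocytes, endothelial cells and macrophages thus moved with the cell state, and their part in the results below was not tested. Of 10 neural stem and progenitor markers, 4 were higher and 4 lower in neurons of each source. Of 8 oligodendrocyte markers compared in bulb cells, 2 were higher and 4 lower in neurons. In hippocampal cells 0 of 7 were higher and 3 were lower. In such bulk RNA, fewer cells of a type and less RNA per cell cannot be told apart.

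Adipocytes are fat cells that store triglyceride and secrete hormones. Their formation from mesenchymal precursors is driven by a short cascade in which C/EBP beta and delta induce PPAR gamma and C/EBP alpha, which then maintain each other and switch on genes of lipid uptake and storage and the adipokines. In rodents resistin is made mainly by adipocytes and, in mice, opposes insulin action, whereas adiponectin enhances it and leptin reports fat stores to the brain. These are not genes that define neurons.

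Retn and the adiponectin gene Adipoq gave bright signals on both neuron arrays and signals of background size on both stem cell arrays. The Retn probe read 201972 in bulb neurons and 57165 in hippocampal neurons, against 4.28 in bulb stem cells and 4.39 in hippocampal stem cells. Both neuron arrays were far above both stem cell arrays, which were not well above background. The difference between neurons and stem cells was at least 14.09 log2 units in bulb cells and at least 11.56 in hippocampal cells, or at least 17414-fold and 3022-fold. With normexp, another background correction that raises dim signals, it was at least 11.35 and at least 8.80. Probes of 2 rat relatives of resistin, Retnla and Retnlg, were not well above background on any of the 4 arrays. The Adipoq probe read 38841 in bulb neurons and 8954 in hippocampal neurons, against 3.05 in bulb stem cells and 2.57 in hippocampal stem cells. On neither stem cell array was it well above background, and the difference was at least 11.71 in bulb cells and at least 8.89 in hippocampal cells. With normexp it was at least 9.42 and at least 6.51.

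**Figure D1:**
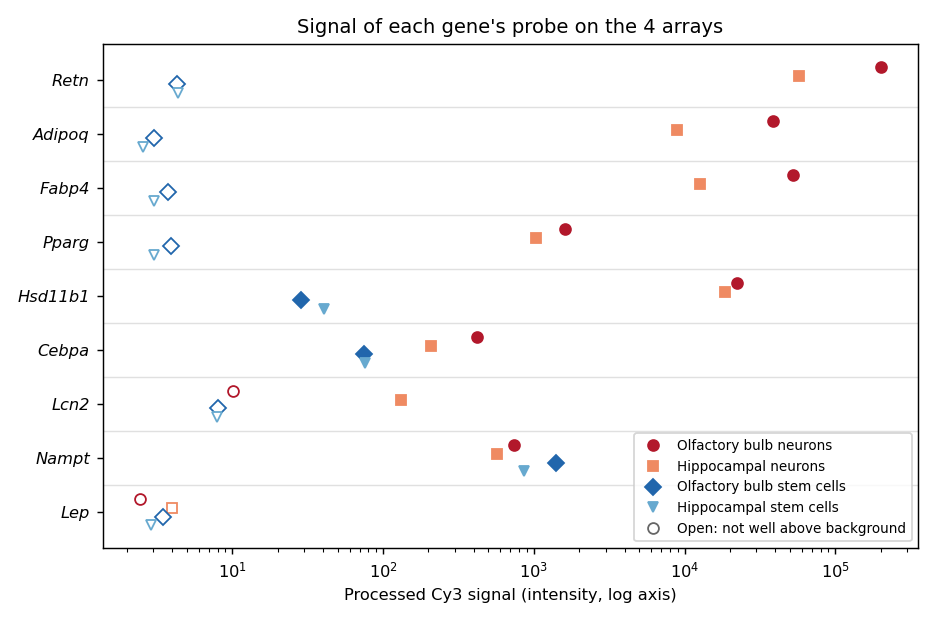
Processed Cy3 signal (log axis) of the probe used for each of the 9 genes on the 4 arrays, 1 array per group, with open symbols for spots not well above background. Retn, Adipoq, Fabp4, Pparg and Hsd11b1 lie high on both neuron arrays and low on both stem cell arrays, and Lep is open on all 4 arrays.

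Leptin did not accompany them. The Lep probe was printed 10 times on each array, and 0 of its spots were well above background on any array. Its median spot read 2.21 in bulb neurons (9 spots, range 1.82 to 3.66), 3.92 in hippocampal neurons (10 spots, 3.35 to 4.82), 3.58 in bulb stem cells (10 spots, 2.85 to 4.54) and 2.78 in hippocampal stem cells (10 spots, 2.40 to 3.84). The 4 arrays overlapped, and all lay below the lowest signal counted as well above background, 8.52 to 15.6 by array. Lep therefore entered no comparison, and its level was not detectable on these arrays. The receptor gene Lepr was well above background in neurons only, with 101 in bulb neurons and 166 in hippocampal neurons against 3.10 in bulb stem cells and 2.62 in hippocampal stem cells.

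Nampt and Lcn2 encode secreted proteins that fat tissue also releases. Nampt did not follow Retn, and Lcn2 was higher with it in hippocampal neurons only. Nampt makes nicotinamide mononucleotide, a precursor of NAD, in most cells. Its brighter probe read 740 in bulb neurons and 572 in hippocampal neurons, against 1403 in bulb stem cells and 859 in hippocampal stem cells. Nampt was thus lower in neurons, by 0.75 log2 units in bulb cells and by 1.31 in hippocampal cells, and only the second passed 2-fold, a call that ended with normexp (-0.90) and with scaling to the arrays' spike-in probes (-0.88). A dimmer second probe was lower by 0.90 in bulb cells and gave no hippocampal value, both arrays being at background. Lcn2, a lipocalin that binds bacterial siderophores, was well above background on 1 array. It read 10.1 in bulb neurons and 131.5 in hippocampal neurons, against 8.0 in bulb stem cells and 7.90 in hippocampal stem cells. The hippocampal difference was at least 2.80, and at least 0.69 with normexp. Bulb neurons were lower than hippocampal neurons by 3.56, or by 1.21 with normexp. The bulb neuron signal was not well above background and kept its own value, so 3.56 is not a strict bound.

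Among the regulators, Pparg showed the larger differences. PPAR gamma is the nuclear receptor required for adipocyte formation, and its probe was also printed 10 times. Its spots read a median of 1603 in bulb neurons (range 1516 to 1770) and 1034 in hippocampal neurons (985 to 1087), against 3.50 in bulb stem cells (3.03 to 7.65) and 2.93 in hippocampal stem cells (2.52 to 4.76). All 10 spots were well above background on each neuron array and 0 of 10 on each stem cell array, and the highest stem cell spot lay far below the lowest neuron spot. The difference was at least 7.12 in bulb cells and at least 5.77 in hippocampal cells, or at least 4.67 and at least 3.31 with normexp. On the neuron arrays the spots had a log2 SD of 0.069 in bulb and 0.041 in hippocampal neurons, which is the noise of spots and not of cultures. Cebpa, the gene of C/EBP alpha, was well above background on all 4 arrays, at 422 in bulb neurons and 208.5 in hippocampal neurons against 75.2 in bulb stem cells and 75.5 in hippocampal stem cells. It was higher by 2.66 in bulb cells, while the 0.74 in hippocampal cells did not reach 2-fold, though it came to 1.18 with spike-in scaling.

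**Figure D2:**
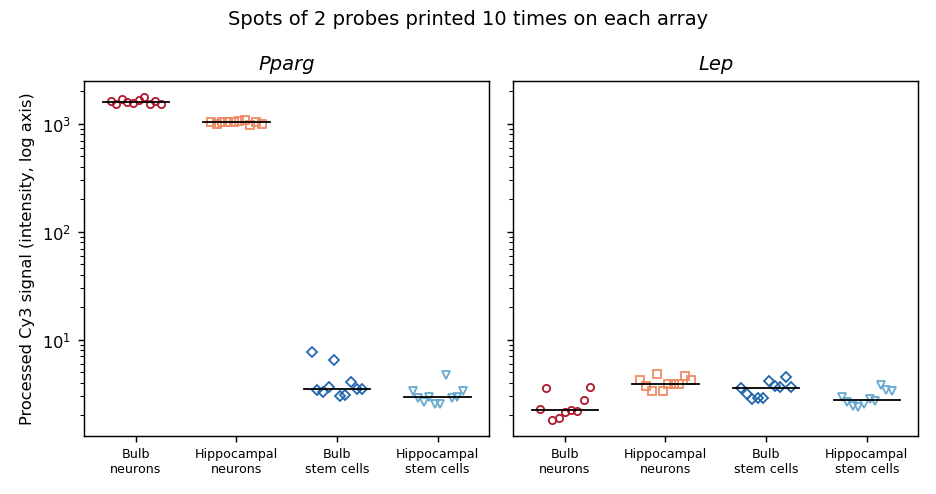
Processed Cy3 signal (log axis) of each spot of the Pparg and Lep probes, printed 10 times per array, with the median as a bar; the spot of Lep marked as an outlier in bulb neurons is left out. The Pparg spots form 2 separate levels, near 1034 to 1603 in neurons and 2.93 to 3.50 in stem cells, while the Lep spots stay between 1.82 and 4.82.

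Fabp4 and Hsd11b1 act downstream in adipocytes. Fabp4 carries fatty acids in the cytoplasm of adipocytes and macrophages, and its probe read 52060 in bulb neurons and 12629 in hippocampal neurons against 3.77 in bulb stem cells and 3.05 in hippocampal stem cells. The difference was at least 12.13 in bulb cells and at least 9.38 in hippocampal cells, or at least 9.52 and at least 6.74 with normexp. The probe of Fabp5, a related gene, was bright in every group (214260, 200953, 271992 and 262371 in bulb neurons, hippocampal neurons, bulb stem cells and hippocampal stem cells), while that of Fabp4 was not well above background in stem cells. Hsd11b1 encodes an enzyme that regenerates active glucocorticoid inside the cell. Its brighter probe read 22287 in bulb neurons and 18536 in hippocampal neurons, against 28.4 in bulb stem cells and 40.7 in hippocampal stem cells, all well above background. It was higher in neurons by 9.79 in bulb cells and by 8.10 in hippocampal cells, or by 7.94 and 6.62 with normexp. A second probe gave at least 9.33 and at least 8.38.

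Of these 9, past the 2-fold threshold 6 were higher and 0 lower in bulb neurons than in bulb stem cells, against 26.9% of 7022 genes higher and 20.0% lower (46.8% in either direction). In hippocampal cells 6 were higher and 1 lower, against 21.9% of 6656 genes higher and 26.8% lower (48.7% in either direction). Since these contrasts were in view when the genes were chosen, nothing is read from the counts. The median over the genes compared was 9.79 in bulb cells (7 genes, 4 of them bounds), against 0.08 over all genes, and 6.94 in hippocampal cells (8 genes, 5 of them bounds), against -0.32.

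Differences between the sources lay within a slide. Retn was 3.92-fold higher in bulb neurons than in hippocampal neurons (log2 1.97), Adipoq 4.82-fold (2.27), Fabp4 4.58-fold (2.19) and Cebpa 2.25-fold (1.17). Pparg (0.80), Nampt (0.52) and Hsd11b1 (0.42) stayed under 2-fold. With spike-in scaling Cebpa came to 0.56, under the threshold, and Nampt (-0.09) and Hsd11b1 (-0.19) changed sign. In the scaling by the 75th percentile 4 genes were higher and 1, Lcn2, was lower, against 7.66% of 6999 genes higher and 8.0% lower (15.7% in either direction). In stem cells 3 of the 9 genes could be compared, and Hsd11b1 was lower in bulb than in hippocampal stem cells by 1.27, or by 0.90 with normexp and 0.40 with spike-in scaling. Cebpa differed by -0.75 and Nampt by -0.04, and with spike-in scaling by 0.11 and 0.82. All genes had a median of -0.43 there, with 4.17% of 6026 genes higher and 6.97% lower past the threshold (11.1% in either direction).

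The sequence before a transcript start is shown for Retn, Adipoq and Pparg, which were high on the same arrays, and for Lep, which was not. RefSeq's promoter entries for the rat build GRCr8 covered 6 of the 9 genes with 7 entries, and Pparg has 2. Each line gives the 250 bases before the start an entry uses, 5′ to 3′ on the gene's strand, in lower case. Capitals mark 4 motifs searched on both strands: the C/EBP letters TTNNGCAA, the nuclear receptor core AGGTCA, the TATA box as TATAAA and the CCAAT box as CCAAT. The windows are chr12:6508524-6508773 (+) for Retn, chr11:91240170-91240419 (-) for Adipoq, chr4:150154522-150154771 (+) for the downstream start of Pparg and chr4:58626288-58626537 (+) for Lep. These starts are not always the outer end of the annotated gene. Of the 250 bases, 121 of Retn, 75 of Adipoq, 250 of Pparg and 9 of Lep lie inside the gene's locus.
Retn: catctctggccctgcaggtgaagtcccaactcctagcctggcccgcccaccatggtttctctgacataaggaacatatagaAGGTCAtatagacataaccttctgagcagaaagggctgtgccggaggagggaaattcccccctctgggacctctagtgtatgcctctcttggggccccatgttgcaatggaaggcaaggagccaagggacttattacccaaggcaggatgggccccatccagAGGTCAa
Adipoq: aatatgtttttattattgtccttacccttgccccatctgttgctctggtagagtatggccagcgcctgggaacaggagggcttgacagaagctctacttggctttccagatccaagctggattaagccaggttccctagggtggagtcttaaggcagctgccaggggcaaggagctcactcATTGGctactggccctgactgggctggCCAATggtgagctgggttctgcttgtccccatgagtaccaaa
Pparg: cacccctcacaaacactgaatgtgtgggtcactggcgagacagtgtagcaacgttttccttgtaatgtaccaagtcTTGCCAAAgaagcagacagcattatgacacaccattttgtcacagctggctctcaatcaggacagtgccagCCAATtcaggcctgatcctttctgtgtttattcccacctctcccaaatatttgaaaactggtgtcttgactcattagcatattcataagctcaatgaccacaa
Lep: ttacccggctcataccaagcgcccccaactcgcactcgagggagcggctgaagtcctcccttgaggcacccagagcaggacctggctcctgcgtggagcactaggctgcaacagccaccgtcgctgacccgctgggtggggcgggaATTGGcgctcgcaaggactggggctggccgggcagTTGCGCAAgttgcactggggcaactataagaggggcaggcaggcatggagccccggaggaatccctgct

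The Retn window held AGGTCA at 2 places, the second inside the annotated locus and 7 bases before the start used, and 14.1% of 33469 rat windows of this length hold it. The downstream Pparg window held TTGCCAAA and the Lep window TTGCGCAA, each 1 match to the C/EBP letters, which 9.22% of windows hold. The Lcn2 window held 1 as well, TTGCTCAA. Windows of Adipoq, Pparg and Lep held CCAAT 2, 1 and 1 times, and 34.0% of windows hold it. The Cebpa window held TATAAA once, as 12.9% of windows do, and the upstream Pparg window held none of the 4 motifs. No matches overlapped. A match describes letters and does not show a bound factor, and Lep held the C/EBP letters without a detectable signal.

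Genes with the most similar pattern were found by the distance between log2 levels over the 4 arrays, each gene centred on its own mean, among 7111 genes well above background on at least 1 array. This is a description over 4 points, and levels not well above background stood at their bound. Nearest to Retn was Cfd, the gene of adipsin, a complement protease secreted by adipocytes, at a distance of 0.557. Cfd read 237571 in bulb neurons and 39710 in hippocampal neurons, against 3.36 in bulb stem cells and 11.3 in hippocampal stem cells. The collagen gene Col3a1 (1.02) and the matrix gene Mgp (1.05) followed. Adipoq and Fabp4 were nearest to each other (0.462) in both directions. Next to Fabp4 came Ramp1 (0.662) and Cpq (0.772). Next to Adipoq came Colec12 (0.674) and Cpq (0.710).

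Pparg lay nearest to Ptgr2 (0.117), A2m (0.150) and Camk1 (0.205), and Hsd11b1 to C1qtnf6 (0.292), Chchd10 (0.50) and Enpep (0.568). Cebpa lay nearest to Hopx (0.112), Ffar2 (0.162) and Itih3 (0.168). Nampt lay nearest to Pdap1 (0.088), Tril (0.132) and Mgat3 (0.140). Lcn2 lay nearest to Nmur1 (0.197), Aqp5 (0.208) and Sult2b1 (0.288), of which only Sult2b1 was well above background in bulb neurons. From Retn itself, Fabp4 was 9th and Adipoq 12th in order of distance.

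Most adipocyte markers other than these genes were also higher in neurons, though their levels varied. Of 9 with a named probe, 9 were well above background on both neuron arrays and 3 on each stem cell array, and Plin1 had no named probe. All 9 were higher by 2-fold or more in bulb neurons than in bulb stem cells (median 7.18, all genes 0.08), and 8 of 9 in hippocampal neurons than in hippocampal stem cells (median 3.72, all genes -0.32). Over all genes 26.9% and 21.9% were higher in these comparisons. This list and the others were chosen with earlier results of these data known, so nothing is read from their counts. In hippocampal cells the count was 6 with quantile normalization and 7 with normexp, and with median scaling 7 were higher and 1 lower; in bulb cells it was 8 with spike-in scaling. Their summed signal was 349 and 52.3 times the 75th percentile in bulb and hippocampal neurons, and 0.449 and 0.676 times in bulb and hippocampal stem cells. Most of the neuron sums was Cfd alone, at 237571 of 253158 in bulb neurons and 39710 of 42141 in hippocampal neurons. Cidec, a lipid droplet protein, read 3237 in bulb neurons and 484 in hippocampal neurons, against 3.49 in bulb stem cells and 3.48 in hippocampal stem cells. Aqp7, the glycerol channel of fat cells, read 3057 in bulb neurons and 468 in hippocampal neurons, against 4.40 in bulb stem cells and 3.62 in hippocampal stem cells. Slc2a4, the insulin-responsive glucose transporter, read 1680 in bulb neurons and 309 in hippocampal neurons, against 13.1 in bulb stem cells and 14.1 in hippocampal stem cells. None of these 3 was well above background in stem cells.

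The other markers ran the same way with 1 exception. Thrsp, a lipogenic protein of fat and liver, was higher by 7.63 in bulb cells and by 3.82 in hippocampal cells. Gpd1, which makes glycerol phosphate, was higher by at least 6.67 and at least 3.40, and the beta-adrenergic receptor gene Adrb3 by at least 3.94 and at least 1.03. Pck1, which feeds glycerol synthesis, was higher by 5.49 and 1.48. In hippocampal neurons Adrb3 read 48.0 and Pck1 71.6, below that array's 75th percentile of 805. Lipe, the hormone-sensitive lipase, was higher by 2.0 in bulb cells and differed by -0.56 in hippocampal cells. In bulb neurons all 9 were higher than in hippocampal neurons by 2-fold or more, with a median of 2.73 against -0.01 over all genes, of which 7.66% were higher. Ucp1, the uncoupling protein of brown fat, was not well above background on any array.

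**Figure D3:**
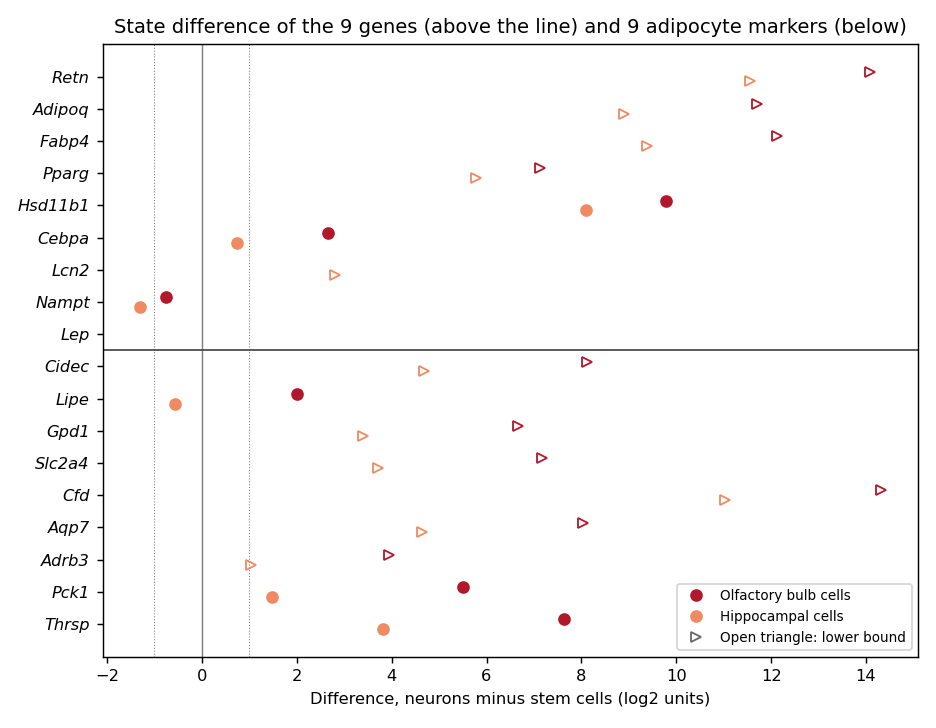
Log2 difference of neurons minus stem cells for the 9 genes (above the line) and the 9 adipocyte markers (below) in bulb and hippocampal cells, with open triangles for lower bounds and dotted lines at 2-fold. Retn (at least 14.09 and 11.56) and Cfd (at least 14.32 and 11.04) lie farthest right, Nampt lies left of 0, and Lep has no value.

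Lipid storage genes were mostly higher in bulb neurons than in hippocampal neurons. Of 23 such genes compared, 8 of them also adipocyte markers, 18 were higher and 0 lower in bulb neurons than in hippocampal neurons (median 2.06), against 7.66% and 8.0% of all genes. Without those 8, it was 10 of 15 (median 1.19). As above, these counts are a description of a list chosen with results known. Against stem cells, 18 of 23 were higher and 0 lower in bulb neurons (median 3.17), and 10 were higher and 4 lower in hippocampal neurons (median 0.69). Without those 8, 10 of 15 were higher and 0 lower in bulb neurons (median 2.13), while 3 were higher and 4 lower in hippocampal neurons (median 0.11). Lpl, the lipase that releases fatty acids at the cell surface, was higher by at least 10.97 in bulb cells and at least 8.15 in hippocampal cells. Cd36, which takes up fatty acids, was higher by at least 7.94 and at least 5.11. The 4 lower in hippocampal neurons were Acly (-2.17), Fasn (-1.87), Acaca (-1.28) and Fabp5 (-1.11), of which the first 3 serve fatty acid synthesis. In bulb cells these stood at -0.99, -0.02, -0.37 and -0.17.

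Other secreted factors and their receptors were mixed. The counts of these and the following lists stand against 26.9% of all genes higher and 20.0% lower in bulb cells, and 21.9% higher and 26.8% lower in hippocampal cells. Of 17 further adipokine and hormone-like genes with a probe, 13 could be compared in bulb cells, with 9 higher and 1 lower in neurons, and 12 in hippocampal cells, with 7 higher and 0 lower. Besides Cfd, the chemerin gene Rarres2 was higher by at least 9.50 in bulb cells and at least 7.52 in hippocampal cells. Angptl4, a lipase inhibitor and PPAR target, was higher by 6.79 and 6.74, the chemokine gene Ccl2 by 6.79 and 5.95 and the angiotensinogen gene Agt by 5.90 and 2.83. Fgf21 was lower by at least 1.5 in bulb cells and higher by at least 0.98 in hippocampal cells. The inflammatory cytokine genes Il6 and Tnf were not well above background on any array. Of 12 receptor and uptake genes, 5 were higher and 1 lower in bulb neurons than in bulb stem cells, and 4 were higher and 0 lower in hippocampal cells. The adiponectin receptor genes Adipor1 and Adipor2 differed by 0.33 and 0.03 in bulb cells and by 0.10 and -0.72 in hippocampal cells. Cdh13, which encodes an adiponectin-binding cadherin, was higher by 3.93 and 5.29. Tlr4, a proposed resistin receptor, was higher by at least 4.97 and at least 3.44, and Cap1, another, differed by 0.22 and -0.08. Dcn, the gene of decorin, a form of which has been proposed to bind resistin in mouse, was higher by at least 11.03 and at least 8.07. Dcn is also counted among the fibroblast, pericyte and smooth muscle markers above. Lrp2, megalin, was lower by 5.84 in bulb cells and differed by -0.48 in hippocampal cells.

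Of 16 other adipogenic transcription factors and cofactors, 9 were higher and 1 lower in bulb neurons than in bulb stem cells (median 1.27). In hippocampal cells 6 were higher and 2 lower (median 0.22). Ebf1, which acts in adipocyte and B cell formation, was higher by at least 7.57 in bulb cells and at least 6.34 in hippocampal cells. Nr1h3, the oxysterol receptor LXR alpha, was higher by 5.58 and 3.87, and Klf4 by 3.63 and 1.36. Rxrg, a partner of nuclear receptors, read 7734 in bulb neurons and 180 in hippocampal neurons, against 41.2 in bulb stem cells and 28.2 in hippocampal stem cells. The early C/EBP genes were also in the list, and Cebpb was higher by 2.51 in bulb cells and by 1.14 in hippocampal cells. Cebpd was higher by 1.70 in bulb cells and differed by 0.32 in hippocampal cells. Nr4a1, an orphan receptor, was lower by 2.69 and 2.50. Ppara, the gene of PPAR alpha, differed by -0.35 in bulb cells and was lower by 1.26 in hippocampal cells. Of 7 genes known to restrain adipocyte formation, 5 were higher and 1 lower in bulb cells and 3 were higher and 1 lower in hippocampal cells. They include Wnt5a (at least 4.77 and at least 4.35) and Dlk1, a marker of preadipocytes (4.65 and 2.17), while Ddit3 was lower by 1.11 and 1.58.

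The surroundings of Hsd11b1, Nampt and Lcn2 were read the same way, against the same shares of 26.9% and 20.0% of all genes in bulb cells and 21.9% and 26.8% in hippocampal cells. Of 15 glucocorticoid genes compared in bulb cells, 6 were higher and 2 lower in neurons, and of 14 in hippocampal cells, 8 were higher and 1 lower. Those higher include Angptl4, which is also counted among the adipokine genes above. Mt1 was higher by 4.90 in bulb cells and by 2.64 in hippocampal cells, and Cdkn1a by 4.23 and 4.03. Hsd11b2, whose enzyme inactivates glucocorticoid, was higher by 4.34 in bulb cells and differed by -0.53 in hippocampal cells. The mineralocorticoid receptor gene Nr3c2 was higher by at least 4.76 in both. Fkbp5, a glucocorticoid receptor co-chaperone and target, was lower by 1.43 and 1.83. Of 9 NAD genes compared, 3 were higher and 1 lower in bulb cells, and 3 were higher and 4 lower in hippocampal cells. The NAD-consuming enzyme genes Bst1 (at least 6.60 and at least 7.86) and Cd38 (at least 5.29 and at least 5.83) were higher in neurons, and Naprt, of the nicotinic acid route, was higher by 3.39 and 1.41. Parp1 was lower by 1.34 and 1.78, and Qprt, of the route from tryptophan, differed by -0.46 in bulb cells and was lower by 1.89 in hippocampal cells. Of 14 acute phase and lipocalin-related genes compared in bulb cells, 14 were higher, as were 10 of 13 in hippocampal cells. The haptoglobin gene Hp was higher by 7.87 and 6.91 and the complement gene C3 by at least 6.15 and at least 7.04. Mmp9, whose product forms a complex with the Lcn2 protein in neutrophils, was higher by at least 5.78 and at least 2.86. Of 5 neutrophil and monocyte markers with a probe, 2 were well above background in bulb neurons and 1 in hippocampal neurons, and 3, S100a9, Ly6c and Mmp8, on none. Of 11 microglia and macrophage markers, 9 were well above background on each neuron array and 4 on each stem cell array, and Itgam and Cx3cr1 on none. Their summed signal was 7.84 and 7.57 times the 75th percentile in bulb and hippocampal neurons, and 0.90 and 0.918 times in bulb and hippocampal stem cells.

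**Figure D4:**
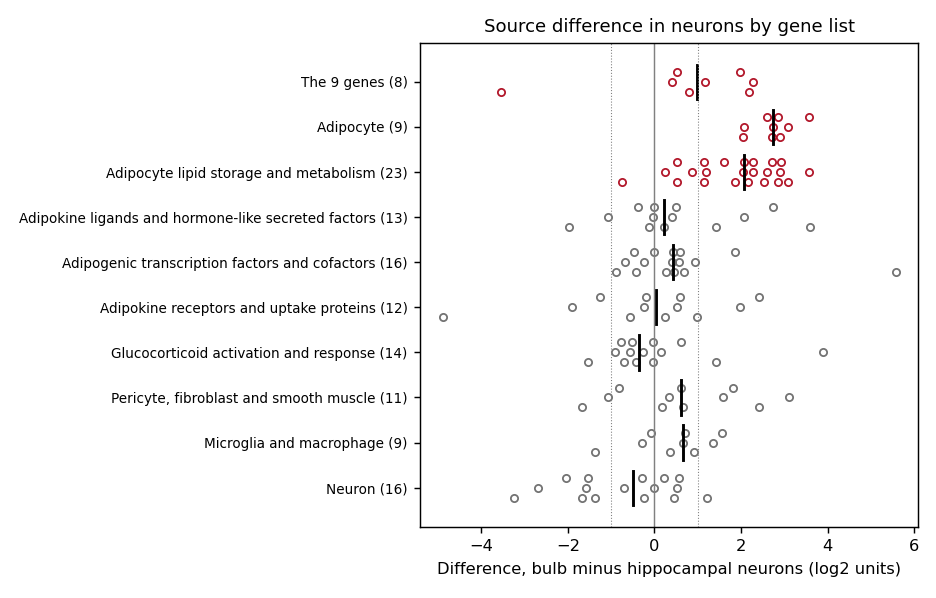
Log2 difference of bulb neurons minus hippocampal neurons for each gene of 10 sets, with the number of genes compared in brackets, the median as a bar and dotted lines at 2-fold; a gene well above background on 1 array only stands at its bound. All 9 adipocyte markers and 18 of 23 lipid genes lie right of the dotted line at 1, while the medians of the fibroblast (0.61), microglia (0.65) and neuron (-0.49) markers lie within 2-fold, with 4 of 11, 2 of 9 and 1 of 16 genes higher and 2, 1 and 7 lower past it.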

How the data were processed

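Gene expression was measured in 4 pooled RNA samples on 4 arrays. Per the submitters' processing notes, Agilent Feature Extraction 10.5.1.1 extracted the spots. Per the file headers the deposited intensity values were background-subtracted and spatially detrended within each array, with no normalization between arrays. The deposited flags mark outlier, saturated and well-above-background spots. The deposited value table of the series held the same intensity (largest difference 0).

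Processed signals were converted to log2, spots of a probe were averaged without marked spots, and the array's own 75th percentile of all non-control probes was taken off. From 41012 such probes, 254 with no unmarked spot on an array were left out. Accessions were matched without versions to RefSeq names of GRCr8, for names only, since the headers name another build, rn4. Of 40758 probes, 10783 had 1 symbol, 0 several and 29975 none. The files hold no gene name column, so naming used accessions alone. For genes with several probes the brightest over the 4 arrays was used.

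Where 1 side was not well above background, it was set to the lowest signal well above background on that array, or to its own if higher. In the second case, as for Lcn2 in bulb neurons and Adrb3 in stem cells, the difference is an estimate and not a strict bound. With 1 array per group no test was possible. The number of arrays limits the precision. The calculation of differences and bounds was tested on simulated data with known shifts. From each list up to 5 genes with the largest state difference and those going the other way were to be named. Not all of them are, and Zbtb16, Nadsyn1 and Sirt6, each lower in 1 source or more, were left out. Adipor1, Adipor2, Cap1, Cebpb, Cebpd, Il6, Tnf, Ucp1, Retnla, Retnlg and some others were named after their values were seen. The genes and lists were chosen with earlier results of these data known. Alternatives were normexp (limma 3.58.1, R 4.3.3, offset 50, on median spot signals, the files having no mean), quantile, median and spike-in scaling, no filter on dim probes, both arrays well above background, the mean over probes, the deposited table and naming by accession.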

Additional observations from a re-analysis of the deposited data

Results flagged for a closer look

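Cebpa, Hsd11b1 and Nampt, the 3 genes well above background on all 4 arrays, had source differences (bulb minus hippocampal cells) of opposite sign in neurons and in stem cells. With 1 array per group the difference of these differences was not tested. Cebpa was higher in bulb neurons than in hippocampal neurons by 1.17 log2 units and lower in bulb stem cells than in hippocampal stem cells by 0.75, a gap of 1.92. Hsd11b1 differed by 0.42 in neurons and by -1.27 in stem cells, a gap of 1.68. Nampt differed by 0.52 in neurons and by -0.04 in stem cells, a gap of 0.56. The stem cell value of Nampt is smaller than the noise between spots, and its sign turned with normexp (0.42 in neurons and 0.29 in stem cells) and with the mean over probes (0.71 and 0.13), so that both differences then ran the same way. The median over all genes was -0.01 in neurons and -0.43 in stem cells. With spike-in scaling the opposite directions were not seen for Cebpa, which differed by 0.56 in neurons and 0.11 in stem cells, or for Hsd11b1, at -0.19 in neurons and -0.40 in stem cells. With it Nampt stood at -0.09 in neurons and 0.82 in stem cells.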

How the results depend on the processing

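Of 9 alternatives, 2 (the deposited table and naming by accession) hold the same input and could change nothing. Under the other 7, 163 of 172 differences of single genes kept their side of 2-fold, 9 changed it and 6 changed sign. Part of the 163 was fixed in advance. The 16 differences left when both arrays had to be well above background repeat the main values. Without the filter on dim probes, measured differences stay the same and bounds cannot shrink. The mean over probes can change only Nampt and Hsd11b1, the genes with several probes. The sign changes were 1 for Cebpa and 2 for Nampt with spike-in scaling, 1 for Hsd11b1 with it, and 1 each for Nampt with normexp and with the mean over probes. Spike-in scaling, on 7 spike-in probes, changed 5 of 26 calls, normexp 3 and median scaling 1. Retn in neurons against stem cells ranged from 11.35 to 15.70 in bulb cells and from 8.80 to 12.94 in hippocampal cells, and in bulb against hippocampal neurons from 1.36 to 2.04. Its values against stem cells were lower bounds except the highest, which came without the filter on dim probes. Nampt in hippocampal cells came to -0.90 with normexp and -0.88 with spike-in scaling, and in bulb cells to -1.29 with median scaling and -1.79 with spike-in scaling. Lcn2 in hippocampal cells came to at least 0.69 with normexp, whose offset of 50 pulls dim signals together by construction. Cebpa came to 1.18 in hippocampal cells and to 0.56 between neurons with spike-in scaling. Hsd11b1 between stem cells came to -0.90 with normexp and -0.40 with spike-in scaling, so the count of genes past 2-fold there was 0 under both, against 1. With genes well above background on both arrays only, which leaves fewer genes by construction, the count was 2 of 9 in bulb cells and 2 in hippocampal cells, against 6 and 7. On that setting 3 adipocyte markers passed in bulb cells and 2 in hippocampal cells, against 9 and 8 (the alternatives for this list were chosen after seeing the data). Spike-in scaling moved the median of all genes to -0.90 in bulb cells, 0.12 in hippocampal cells, 0.43 between stem cells and -0.62 between neurons, and median scaling to -0.41, -0.78, -0.45 and -0.11. Of the genes past 2-fold, those higher were 57.4% in bulb cells, 44.9% in hippocampal cells, 37.4% between stem cells and 48.9% between neurons, against 25.3%, 66.5%, 94.1% and 14.6% with spike-in scaling and 37.0%, 28.8%, 34.9% and 42.9% with median scaling. No paired analysis was possible because each group had 1 array. No signal below 8.52 to 15.6, by array, counted as well above background. Some signals over these did not either, such as Lcn2 in bulb neurons at 10.1.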
